A study of Homo sapiens with 9 samples.

Results

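The 10 genes described here are the transcripts most often read as the output of RAS-ERK signalling: the dual-specificity phosphatase genes DUSP1, DUSP4, DUSP5 and DUSP6, the Sprouty genes SPRY2 and SPRY4, the ETS factor genes ETV4 and ETV5, the immediate early gene EGR1, and PHLDA1. They were chosen by name, and each symbol matched 1 Ensembl identifier among the 60719 genes of the table, so 10 of 10 were found. The cells were MDA-MB-231, a human breast cancer line with the genotype label WT. All recipient cultures were kept for 72 h in 5% exo-free medium. The No sEV group received no small extracellular vesicles (sEVs), the Cont sEV group received sEVs from donor MDA-MB-231 cells given DMSO, and the TIS sEV group (therapy induced senescence) received sEVs from donor cells given 100 ng/ml of nocodazole (spelled Nocodozole in the labels). Donor treatment lasted 72 h and was followed by 72 h of release before sEVs were collected, and each group had 3 libraries. Donor and recipient cells were of the same line, so RNA carried by sEVs cannot be told apart from RNA of the recipient cells. Nothing in the labels tells if the 3 libraries of a group came from separate cultures, and the p-values then cover only library-to-library spread, perhaps technical. Senescence of the donors and any other effect of nocodazole on them cannot be told apart.

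ERK is the last kinase of a relay that runs from receptor adaptors through RAS, RAF and MEK, and it switches on genes that in turn hold the relay back. The dual-specificity phosphatases remove phosphates from MAP kinases, Sprouty proteins act on the relay between receptors and RAF, and ETV4, ETV5 and EGR1 are transcription factors whose genes respond to ERK activity. These feedback transcripts tend to be abundant where the pathway is active, and they are used as a readout of how strongly the pathway runs.

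The 9 libraries were deposited as TPM, transcript abundance per length scaled to the same total in each library, so read depth is unknown. Their fit to the labelled line was checked on marker genes. The 7 mesenchymal and basal markers were all present, with VIM at 2206 to 2299 TPM, and their summed level was 3856 to 3923 TPM with No sEV, 3826 to 3936 with Cont sEV and 3960 to 4050 with TIS sEV. Of 7 luminal and hormone receptor markers, ESR1, PGR, FOXA1 and CDH1 stayed below 1 TPM in every library, while ERBB2 was at 26.2 to 30.7 TPM and EPCAM at 21.1 to 25.9 TPM, and 0 of the 7 were at 0 in all libraries. That list summed to 53.3 to 56.9 TPM with No sEV, 53.1 to 54.5 with Cont sEV and 54.0 to 59.3 with TIS sEV. TIS sEV replicate 3 tended to differ most from the other libraries. Paired with each other library, its log2 differences had an SD between 0.131 and 0.153 in the 3386 genes averaging 50 TPM or more. Pairs without it gave 0.0777 to 0.132, so the ranges overlapped at their ends. Mitochondrially encoded genes made up 2.07% to 2.52% of TPM with TIS sEV, 2.58% to 3.39% with Cont sEV and 2.47% to 2.92% with No sEV, so that the TIS sEV and Cont sEV groups did not overlap. Fewer cells of a kind and less RNA per cell cannot be told apart in such bulk samples. The part of the marker sums in the differences given here was not tested. Gene positions are those of GENCODE 29 on GRCh38, where all 10 members are protein-coding.

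The promoters of DUSP1 and EGR1 are shown because these 2 members had the highest and the lowest difference between TIS sEV and Cont sEV, and both are immediate early genes. The sequences are the 250 bases before the RefSeq start on GRCh38.p14, printed 5′ to 3′ on the strand of the gene, with motif matches in capitals. DUSP1 is at chr5:172771196-172771445 on the minus strand and EGR1 at chr5:138465229-138465478 on the plus strand.
DUSP1: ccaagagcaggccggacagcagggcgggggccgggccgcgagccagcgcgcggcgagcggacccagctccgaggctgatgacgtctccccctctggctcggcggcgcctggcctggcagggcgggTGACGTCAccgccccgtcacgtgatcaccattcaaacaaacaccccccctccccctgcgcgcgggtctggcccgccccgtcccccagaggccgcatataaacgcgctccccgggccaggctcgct
EGR1: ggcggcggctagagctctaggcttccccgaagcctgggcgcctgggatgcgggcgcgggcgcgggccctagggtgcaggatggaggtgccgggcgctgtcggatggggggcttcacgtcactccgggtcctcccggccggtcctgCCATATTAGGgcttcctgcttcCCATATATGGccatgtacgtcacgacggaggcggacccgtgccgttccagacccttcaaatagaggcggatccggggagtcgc
The capitals in DUSP1 mark the cyclic AMP response element TGACGTCA, at bases -125 to -118 from the start. Those in EGR1 mark 2 CArG boxes, the core of the serum response element, at bases -105 to -96 and -83 to -74. Both strands were searched, for these motifs and for the AP-1 site TGANTCA and the ETS site CCGGAAGT, and the matches found did not overlap each other. Among 35116 RefSeq promoter windows of this length, 1.65% held the cyclic AMP response element, 1.16% a CArG box, 6.57% the AP-1 site and 3.42% the ETS site. RefSeq windows were matched for 6 of the 10 genes. DUSP6, SPRY2, SPRY4 and PHLDA1 held 0 matches, which says only that these letters are not in that window. For DUSP6, SPRY4 and PHLDA1 the window lies inside the GENCODE gene, not upstream of its outermost start. For SPRY2 a stretch just after the RefSeq start was not found in its GENCODE transcripts. DUSP4, DUSP5, ETV4 and ETV5 were not searched.

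The feedback transcripts were abundant in all 3 groups, and their order was the same in every library. TPM is corrected for transcript length, so levels can be set side by side between genes. Over the 9 libraries the mean was 324 TPM for DUSP6, 287 for PHLDA1, 213 for DUSP4, 152 for DUSP5, 142 for DUSP1 and 125 for SPRY2. A lower set followed with ETV4 at 53.5, EGR1 at 47.4, ETV5 at 42.2 and SPRY4 at 36.8 TPM. Each gene lay above the next lower one in 9 of 9 libraries. The ranges over libraries overlapped for DUSP5 and DUSP1, for ETV4 and EGR1, and for EGR1 and ETV5, so these neighbours were apart within libraries but not beyond the spread between libraries. The widest gap was between SPRY2 and ETV4, with ratios of 2.23 to 2.48 per library. Among the 13879 genes tested, DUSP6 was at the 96.8th percentile of mean TPM and SPRY4 at the 68.8th.

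**Figure D1:**
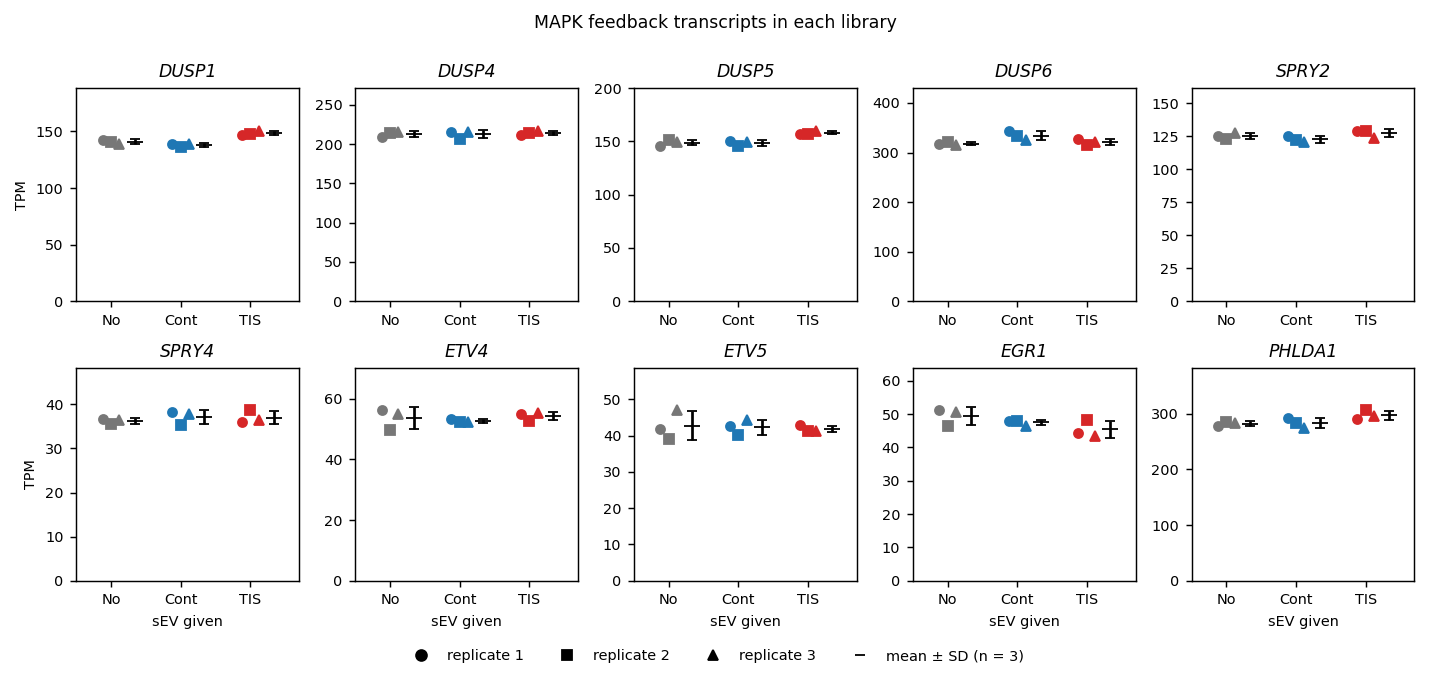
TPM of each feedback gene (y axis, from 0) in the No sEV, Cont sEV and TIS sEV libraries (x axis), with 1 point per library, shaped by replicate number, and the mean ± SD of 3 libraries beside them. The groups lie close together in every panel, and the 3 TIS sEV points of DUSP1 (147 to 151 TPM) and DUSP5 (157 to 160 TPM) are above the other 6.

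None of the 10 genes passed in any comparison. Values were compared as log2(TPM + 1) in limma's moderated test, adjusted by Benjamini-Hochberg over all 13879 genes at 0.05. For TIS sEV against Cont sEV 0 of 10 passed, against 13 of 13879 genes overall (0.0937%). For TIS sEV against No sEV it was 0 of 10, against 1 gene overall (0.00721%), and between Cont sEV and No sEV 0 of 10, against 0 overall (0%). In limma's F test over the 3 groups 0 of 10 passed, against 3 genes overall (0.0216%), with adjusted p from 0.383 for DUSP1 to 0.981 for ETV5. At an unadjusted p under 0.05 the members numbered 3, 4 and 1 in the 3 comparisons in that order, where the shares over all genes were 10.0%, 7.97% and 6.03%. The ratio of group means lay between 0.920 and 1.08 in all 30 member comparisons. Of their 95% confidence intervals, the lowest bound was -0.23 and the highest 0.16 on the log2(TPM + 1) scale, which corresponds to folds of 0.851 and 1.12. A miss of the threshold does not show that levels were equal.

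The transcripts of 2 nuclear phosphatases had the highest TIS sEV values of the list relative to the other groups. DUSP1 (ENSG00000120129.6, chromosome 5, 172768090 to 172771195, GRCh38), an immediate early gene whose protein acts on p38, JNK and ERK, was at 143, 141 and 139 TPM with No sEV, at 139, 136 and 139 with Cont sEV and at 147, 148 and 151 with TIS sEV. The TIS sEV libraries lay above all 6 others. The log2 fold change was 0.11 (SE 0.026, limma, adjusted p = 0.227) against Cont sEV and 0.076 (SE 0.026, limma, adjusted p = 0.551) against No sEV. DUSP5 (ENSG00000138166.6, chromosome 10, 110497838 to 110511544), which encodes a nuclear phosphatase specific for ERK, was at 146, 151 and 149 TPM with No sEV, at 151, 145 and 150 with Cont sEV and at 157, 157 and 160 with TIS sEV. Here too the TIS sEV libraries lay above the other 6, with log2 fold changes of 0.090 (SE 0.027, limma, adjusted p = 0.292) against Cont sEV and 0.089 (SE 0.027, limma, adjusted p = 0.499) against No sEV. Groups without overlap were found for 2 of 10 members between TIS sEV and Cont sEV, where the share over all genes was 15.4% (10.9% with the first group higher), and for 3 of 10 between TIS sEV and No sEV, where it was 14.1% (11.3% higher). In each of these the TIS sEV group was higher; the third gene against No sEV was PHLDA1. Both comparisons share the TIS sEV libraries, so they are not separate evidence. With mitochondrially encoded genes left out the differences from Cont sEV were 0.094 for DUSP1 and 0.078 for DUSP5, and without TIS sEV replicate 3 they were 0.095 and 0.081. Over all fits with 1 library left out, the lowest differences from Cont sEV were 0.095 for DUSP1 and 0.074 for DUSP5. Rescaling by median of ratios moved the differences from No sEV to 0.043 for DUSP1 and 0.056 for DUSP5, and quantile normalization moved that of DUSP5 from Cont sEV to 0.055.

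The other 2 phosphatase genes had overlapping TIS sEV and Cont sEV groups, and no difference between genes was tested. DUSP4 (ENSG00000120875.9, chromosome 8, 29333064 to 29350668), whose protein is also nuclear, was at 209, 214 and 215 TPM with No sEV, at 215, 207 and 215 with Cont sEV and at 212, 213 and 217 with TIS sEV. The groups overlapped throughout, and the 3 differences lay between -0.0016 and 0.010 on the log2 scale. The largest half-width of an interval was 0.060 for this gene. DUSP6 (ENSG00000139318.8, chromosome 12, 89347232 to 89353271) encodes the cytoplasmic phosphatase that acts on ERK and is widely used as an ERK readout. It was at 317, 321 and 316 TPM with No sEV, at 344, 334 and 324 with Cont sEV and at 327, 316 and 321 with TIS sEV. All 3 Cont sEV libraries lay above the No sEV libraries, with a log2 fold change of 0.072 (SE 0.028, limma, adjusted p = 0.804). This was the 1 member of 10 whose groups did not overlap in that comparison, against 11.2% over all genes (6.72% higher). TIS sEV and Cont sEV overlapped for DUSP6 (-0.057, limma, adjusted p = 0.537, or -0.036 without Cont sEV replicate 1), with the mean lower in the TIS sEV group.

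**Figure D2:**
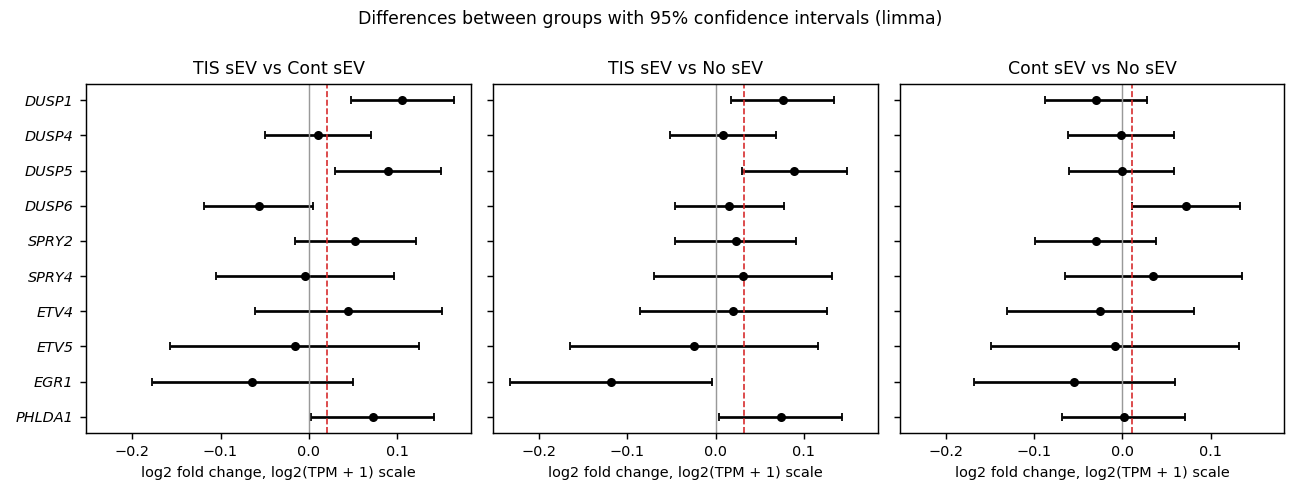
Log2 fold change of each feedback gene (points) with its 95% confidence interval (bars) on the log2(TPM + 1) scale (x axis) in the 3 comparisons; the dashed line is the median over all 13879 tested genes. The points lie between -0.12 and 0.11, and the intervals between -0.23 and 0.16.

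The Sprouty genes showed no separation of groups in any comparison. SPRY2 (ENSG00000136158.12, chromosome 13, 80335976 to 80340951) was at 125, 123 and 128 TPM with No sEV, at 125, 123 and 120 with Cont sEV and at 129, 129 and 124 with TIS sEV. Its TIS sEV mean was the highest, with overlap and with the sign against No sEV turning under other scaling, and the log2 fold change from Cont sEV was 0.053 (limma, adjusted p = 0.612). SPRY4 (ENSG00000187678.10, chromosome 5, 142310427 to 142326455) was at 36.7, 35.5 and 36.4 TPM with No sEV, at 38.3, 35.3 and 37.9 with Cont sEV and at 36.0, 38.7 and 36.4 with TIS sEV. The difference between TIS sEV and Cont sEV was -0.0043 (limma, adjusted p = 0.988), with an interval from -0.10 to 0.096. SPRY4 overlaps the antisense gene SPRY4-AS1, which was at 1.209 to 3.465 TPM, and reads of the 2 could be mixed if strand was not used.

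The transcription factor genes were the least precise members. ETV4 (ENSG00000175832.13, chromosome 17, 43527844 to 43579620) was at 56.2, 49.5 and 55.0 TPM with No sEV, at 53.2, 52.2 and 52.3 with Cont sEV and at 55.1, 52.6 and 55.1 with TIS sEV. The No sEV libraries alone spanned the range of all others. ETV4 overlaps DHX8 on the opposite strand, which was at 37.25 to 41.45 TPM. ETV5 (ENSG00000244405.8, chromosome 3, 186046308 to 186110318) was at 41.8, 39.1 and 47.0 TPM with No sEV, at 42.5, 40.2 and 44.3 with Cont sEV and at 42.8, 41.4 and 41.2 with TIS sEV. Its lowest and its highest library were both in the No sEV group, and its intervals were the widest of the list, reaching 0.14 to each side. Differences in ETV4 and ETV5 ranged from -0.025 to 0.045 over the 3 comparisons, with adjusted p from 0.810 to 0.994 in limma.

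EGR1 (ENSG00000120738.8, chromosome 5, 138465490 to 138469315), a zinc finger factor induced within minutes of stimulation, had the lowest TIS sEV values relative to No sEV. It was at 51.2, 46.4 and 50.7 TPM with No sEV, at 48.0, 48.0 and 46.5 with Cont sEV and at 44.4, 48.3 and 43.5 with TIS sEV. TIS sEV replicates 1 and 3 were below all 7 other libraries, while replicate 2 lay inside the No sEV range. The log2 fold change from No sEV was -0.12 (SE 0.051, limma, adjusted p = 0.621), or -0.089 without TIS sEV replicate 3 and -0.16 without TIS sEV replicate 2. Against Cont sEV it was -0.064 (limma, adjusted p = 0.731), or -0.034 without TIS sEV replicate 3 and -0.11 without TIS sEV replicate 2. PHLDA1 (ENSG00000139289.13, chromosome 12, 76025447 to 76033932), a pleckstrin homology-like domain gene that belongs to published MAPK activity scores, was at 278, 285 and 284 TPM with No sEV, at 291, 283 and 273 with Cont sEV and at 290, 306 and 296 with TIS sEV. The TIS sEV libraries lay above those with No sEV (0.074, SE 0.031, limma, adjusted p = 0.615) and overlapped those with Cont sEV (0.072, limma, adjusted p = 0.479). Rescaling by median of ratios brought the first of these differences to 0.041.

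The list had these counts and medians beside those of all genes. In the TIS sEV group 6 of 10 had a higher mean log2 value than with Cont sEV, with a median difference of 0.028, against 59.6% of all genes and a median of 0.020. Relative to No sEV it was 8 of 10, with a median of 0.022, against 66.7% and 0.032 over all genes. With Cont sEV 3 of 10 were higher than with No sEV, with a median of -0.0048, against 56.5% and 0.011. After median-of-ratios rescaling, which brought the median over all genes to 0.0012 between TIS sEV and No sEV, the members' median there was -0.011.

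**Figure D3:**
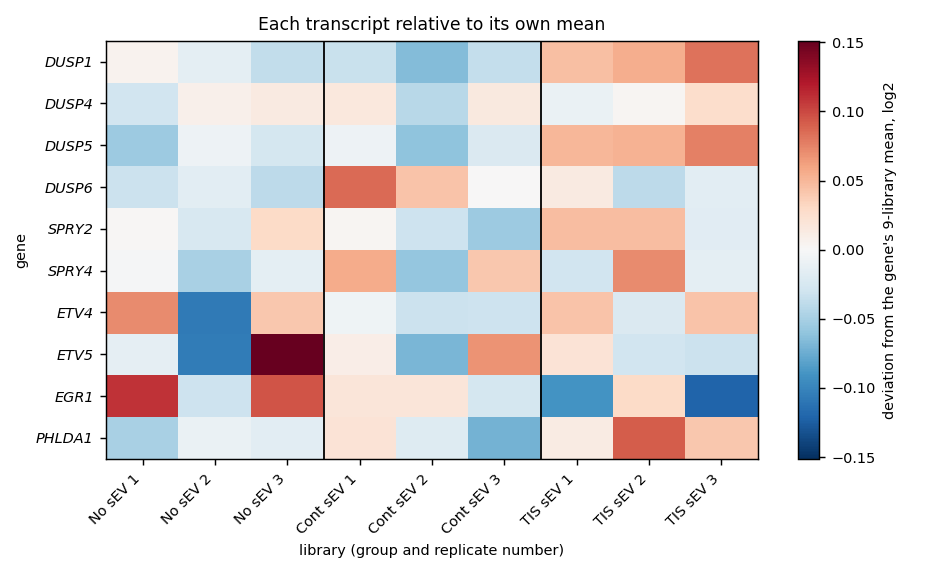
Deviation of each feedback gene (rows) in each library (columns) from its own mean over 9 libraries, in log2(TPM + 1) units (colour scale, red above and blue below the mean). DUSP1 and DUSP5 are above their means in all 3 TIS sEV libraries, while the largest deviations are single libraries of ETV5, ETV4 and EGR1.

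The members did not move as 1 block from library to library. Over the 9 libraries, Pearson's r between members ranged from -0.71 for DUSP5 with EGR1 to 0.88 for DUSP1 with DUSP5, and 28 of 45 pairs were positive, with a median of 0.16. All pairs share the same libraries and their scaling, so these values are a description only. Cont sEV replicate 2 held the lowest value of 4 members (DUSP1, DUSP4, DUSP5 and SPRY4). The median deviation over all genes was also lowest in that library, at -0.029 on the log2 scale. TIS sEV replicate 2 held the highest value of SPRY2, SPRY4 and PHLDA1, and TIS sEV replicate 3 that of DUSP1, DUSP4 and DUSP5. The within-group SD was 0.020 on the log2 scale for DUSP1, the smallest of the list, and 0.087 for ETV5, the largest, against a median of 0.085 over all tested genes.

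The genes with profiles nearest to DUSP6 and EGR1 were found among 10482 others averaging 5 TPM or more, by the root-mean-square difference of centred log2 values over the 9 libraries. Nearest to DUSP6 were SAMHD1 (0.019), ABCF2-H2BK1 (0.020) and LARP1B (0.021), where the median candidate was at 0.081. Nearest to EGR1 were ERCC1 (0.033), DDX39A (0.037) and VMA21 (0.039), where the median was 0.11. A gene with the same value in every library would be at 0.039 from DUSP6 and at 0.072 from EGR1. Both values are below the medians, so nearness here partly reflects a small spread. None of these 6 is another member of the list.

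Other genes of the pathway, listed by role, gave 0 passes in either direction in all 3 comparisons. Of 6 further MAP kinase phosphatase genes 5 were tested, and DUSP9 was not expressed at the level required. DUSP8 was at 4.89, 5.86 and 5.68 TPM with Cont sEV and at 7.01, 6.40 and 6.31 with TIS sEV, without overlap (0.23, limma, adjusted p = 0.472). DUSP16 was at 12.9, 8.84 and 11.1 TPM with Cont sEV and at 12.6, 11.8 and 11.9 with TIS sEV. The groups overlapped, and the difference of 0.15 (limma, adjusted p = 0.708) was 0.014 without Cont sEV replicate 2, the low library, and 0.26 without Cont sEV replicate 1. DUSP10, whose protein acts on p38 and JNK, was at 56.6, 54.8 and 54.7 TPM with No sEV, at 64.0, 58.9 and 62.4 with Cont sEV and at 64.0, 63.5 and 63.9 with TIS sEV. Both groups given sEVs lay above No sEV for this gene, by 0.15 (limma, adjusted p = 0.668) and 0.20 (limma, adjusted p = 0.199), and they share the No sEV libraries. DUSP7, named after its values were seen, went the other way. Both groups given sEVs lay below No sEV, by -0.054 with Cont sEV and -0.064 with TIS sEV. Groups without overlap made up 11.2% of all genes between Cont sEV and No sEV, and 14.1% between TIS sEV and No sEV.

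Of 5 further Sprouty and Spred genes 4 were tested. SPRY1 was at 14.6, 13.7 and 13.4 TPM with No sEV, at 15.3, 15.7 and 15.9 with Cont sEV and at 13.4, 14.4 and 13.04 with TIS sEV. The Cont sEV libraries lay above the other 6, as they did not for SPRY2 or SPRY4. The difference between TIS sEV and Cont sEV was -0.19 for SPRY1 (limma, adjusted p = 0.287), -0.028 for SPRED2 and 0.030 for SPRED1. The last 2 changed sign when 1 library was left out, SPRED2 to 0.013 without Cont sEV replicate 3 and SPRED1 to -0.034 without TIS sEV replicate 2 and -0.036 without Cont sEV replicate 2. All 12 genes listed as other regulators of RAS-ERK signalling were tested, with a median of 0.0087 between TIS sEV and Cont sEV. In the figure this list is labelled other inhibitors, though not all of its genes only inhibit the pathway. The smallest p among them belonged to PPP2CA, the catalytic subunit of protein phosphatase 2A, at 213 ± 7.58 against 196 ± 8.79 TPM (SD, n = 3; limma, adjusted p = 0.337). PTPN11 (0.059) and RASA2 (0.12) followed, both with overlap. For PTPN11 the difference was 0.017 without Cont sEV replicate 2, 0.038 without TIS sEV replicate 3 and 0.091 without Cont sEV replicate 1. For RASA2 it was 0.063 without TIS sEV replicate 2 and 0.078 without Cont sEV replicate 2.

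All 17 cascade genes were tested, with 12 higher and a median of 0.011 between TIS sEV and Cont sEV. GRB2, the adaptor that brings SOS to receptors, was at 78.7, 86.5 and 78.0 TPM with TIS sEV against 74.7, 73.0 and 74.3 with Cont sEV (0.13, limma, adjusted p = 0.337), or 0.080 without TIS sEV replicate 2. MAP2K2, which encodes a MEK kinase, was at 238 ± 7.08 against 223 ± 4.22 TPM (SD, n = 3; limma, adjusted p = 0.378), and SHC1 differed by -0.085 with overlap, or by -0.025 without TIS sEV replicate 2.

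Of 20 other ERK-responsive genes 17 were tested, and EGR2, EGR3 and VGF were too low. Of the 17, 6 had groups that did not overlap between TIS sEV and Cont sEV, all 6 higher with TIS sEV, where 10.9% of all genes did so in that direction. Between TIS sEV and No sEV it was 4 of the 17, all 4 higher with TIS sEV, where 11.3% of all genes did so. Both counts share the TIS sEV libraries. The 3 of smallest p were immediate early genes and a growth factor. IER2 was at 112, 120 and 120 TPM with TIS sEV against 106, 107 and 100 with Cont sEV and 111, 112 and 111 with No sEV (0.17 against Cont sEV, limma, adjusted p = 0.186). IER3 was at 2843 ± 71.4 TPM with TIS sEV against 2566 ± 128 with Cont sEV (SD, n = 3, limma, adjusted p = 0.238). With No sEV it was at 2678 ± 92.4 TPM (SD, n = 3). For IER2 and IER3 the TIS sEV and No sEV groups overlapped, and the Cont sEV mean was the lowest of the 3 groups. HBEGF, which encodes a ligand of EGFR, was at 89.2 ± 3.34 TPM with TIS sEV against 81.7 ± 1.37 with Cont sEV (SD, n = 3, limma, adjusted p = 0.259). With No sEV this gene was at 83.2 ± 1.65 TPM (SD, n = 3), without overlap with TIS sEV. FOS, named after its values were seen, had a mean of 15.5 TPM with TIS sEV against 18.4 with Cont sEV, with overlap. Its log2 difference of -0.23 (limma, adjusted p = 0.468) was -0.14 without Cont sEV replicate 2. Both this list and the 10 feedback genes had a median of 0.028.

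**Figure D4:**
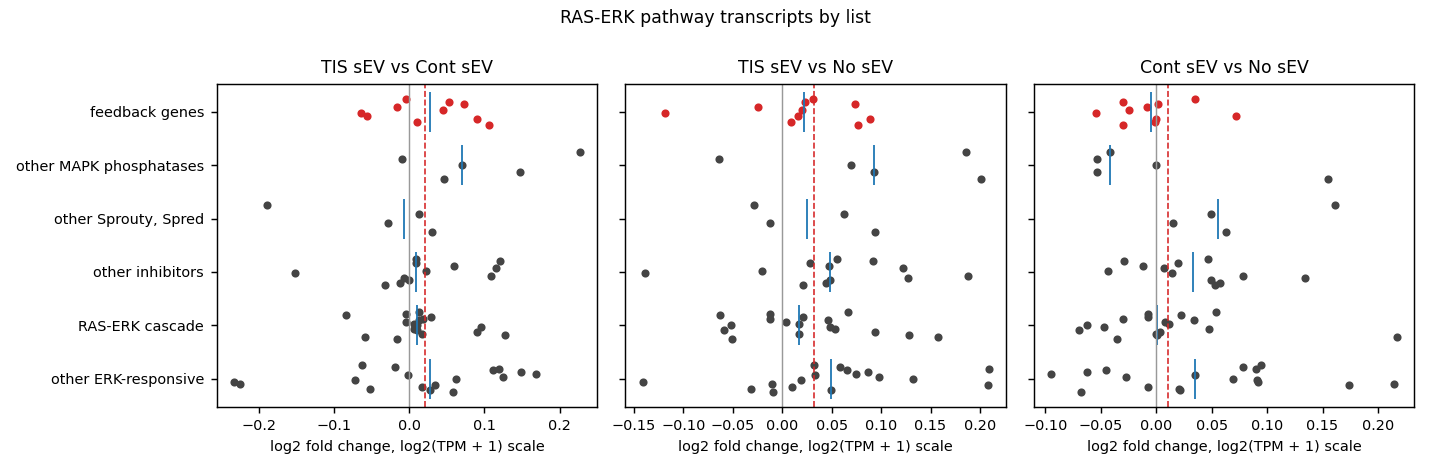
Log2 fold changes on the log2(TPM + 1) scale (x axis) of the feedback genes (red points) and of 5 other lists of RAS-ERK pathway genes (dark points) in the 3 comparisons; blue ticks mark list medians and the dashed line the median over all tested genes. List medians between TIS sEV and Cont sEV lie between -0.0076 and 0.070, and 0 of the genes shown passed.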

How the data were processed

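Gene-level TPM values were used as deposited by the authors, 1 column for each of 9 libraries. The submitters' processing notes name Salmon 1.4.0 beside Trim Galore 0.6.6, FastQC 0.11.9 and DESeq2 1.28.0. The build was GRCh38.p13 per the same notes, and the annotation release and the use of strand are not given in the sources used here. Symbols were matched by Ensembl identifier (99.51% of identifiers) and gene coordinates were taken from GENCODE 29. Promoter sequences came from RefSeq on GRCh38.p14.

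TPM keeps no depth, so no count model was fitted and precision is given by the spread of 3 libraries a group. Values were taken as log2(TPM + 1), which understates changes of low genes. The filter of 1 TPM or more in 3 or more libraries left 13879 genes, with all 10 members among them. All 9 libraries entered 1 fit with a variance trend in limma 3.58.1 (R 4.3.3), and two-sided p-values were adjusted over all genes. The steps were tested on simulated data in which the changes put in were larger than any member difference here. That test does not show whether differences as small as those of the members would be found. Figures were drawn with matplotlib 3.10.9.

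The members and lists were chosen with earlier results of these data known. All members were named. Of each other list, genes that passed and up to 3 of smallest p between TIS sEV and Cont sEV were named. FOS and DUSP7 fall outside this rule. A result on 1 cascade gene is not reported here. The 31-mers of the members' GENCODE transcripts were compared with those of all other genes, and at most 2.74% (ETV5) were shared. Only the transcript orientation was compared, so sharing with opposite-strand genes such as SPRY4-AS1 and DHX8 was not measured. Alternatives were other pseudocounts, filters and scalings, library weights, a prior variance without trend, a block for the replicate number, removal of mitochondrially encoded genes, fits of only 6 libraries, and each library left out; for pathway genes other than the members, the last was chosen after seeing the data.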

Additional observations from a re-analysis of the deposited data

How the results depend on the processing

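The counts of 0 members passed, in each comparison and in the F test, were 0 under every alternative run, the replicate block and each left-out library included; the smallest adjusted p of a member under any of them was 0.196 (DUSP1, limma, TIS sEV against Cont sEV, filter of 5 TPM).

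Over all genes, the 13 calls between TIS sEV and Cont sEV became 2 with a constant prior variance and 3 with only the 6 libraries compared, 9 with the replicate block (5 of them among the 13), and 2 to 13 with 1 library left out: 2 without TIS sEV replicate 1, 2 without Cont sEV replicate 2, 3 without Cont sEV replicate 3 or No sEV replicate 3, 4 without TIS sEV replicate 2, 7 without TIS sEV replicate 3 and 8 without No sEV replicate 1. The 13 were 6 higher and 7 lower, against 3 and 11 after median-of-ratios rescaling, 6 and 11 after quantile normalization and 0 and 9 with the block. The single call between TIS sEV and No sEV became 0 with a constant prior variance, 9 with no filter, 2 with only the 6 libraries compared, and 1 to 2 with 1 library left out (2 without TIS sEV replicate 3, without TIS sEV replicate 2 and without Cont sEV replicate 2). The 0 calls between Cont sEV and No sEV became 1 with the filter of 5 TPM, 7 with no filter, and 0 to 1 with 1 library left out (1 without Cont sEV replicate 2). Same-numbered libraries did not deviate together more than other pairs did (r from -0.048 to 0.079, against -0.10 to 0.10). Of 9 libraries, 2 correlated best with their own number. With 3 libraries a group this cannot show whether same-numbered samples were paired, and the labels give only the number.

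The sign of several near-zero differences turned; the cause was not tested. Between TIS sEV and Cont sEV, DUSP4 was at -0.0012 with mitochondrially encoded genes left out, -0.0049 under quantile normalization and -0.011 under median-of-ratios rescaling. Between TIS sEV and No sEV, median-of-ratios rescaling gave -0.024 for DUSP4, -0.017 for DUSP6, -0.012 for ETV4, -0.0099 for SPRY2 and -0.0013 for SPRY4, and quantile normalization gave -0.00079 for DUSP4, -0.012 for ETV4 and -0.0029 for SPRY4. Between Cont sEV and No sEV, DUSP4 was at 0.0020 with library weights, 0.0039 without mitochondrially encoded genes and 0.0041 after quantile normalization, DUSP5 at 0.0033, 0.0049 and 0.0046 in the same order, and PHLDA1 at -0.010 after median-of-ratios rescaling. With 1 library left out, differences crossed 0 between TIS sEV and Cont sEV for DUSP4 (-0.0088 to 0.020), ETV5 (-0.052 to 0.016) and SPRY4 (-0.040 to 0.017). Between TIS sEV and No sEV they did for DUSP4 (-0.0046 to 0.017), ETV4 (-0.034 to 0.055), ETV5 (-0.083 to 0.046) and SPRY4 (-0.00021 to 0.050). Between Cont sEV and No sEV they did for DUSP4 (-0.015 to 0.018), DUSP5 (-0.013 to 0.015), ETV4 (-0.079 to 0.010), ETV5 (-0.066 to 0.062) and PHLDA1 (-0.020 to 0.025). Differences of DUSP1, DUSP5 and PHLDA1 between TIS sEV and either other group, and of EGR1 in all comparisons, kept their sign throughout. So did those of DUSP6, SPRY2 and ETV4 between TIS sEV and Cont sEV, and of DUSP1, DUSP6, SPRY2 and SPRY4 between Cont sEV and No sEV. The depth of the libraries is unknown, so counting error cannot be separated from other spread.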
